A study of Danio rerio with 9 samples.

Results

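The genes described here are the zebrafish immune system genes that were called as differentially expressed genes (DEGs) in larval liver after exposure to azithromycin or one of its impurities and that no table placed under a set of broad KEGG terms. A gene was a member when any of the 8 deposited DEG tables placed it under Immune System (Reactome) or under the Toll-like receptor signaling pathway (KEGG) and none placed it under 12 broad KEGG terms, which were Ribosome, MAPK signaling pathway, Lysosome, Phagosome, Endocytosis, Metabolic pathways, Proteasome, Ubiquitin mediated proteolysis, Focal adhesion, Regulation of actin cytoskeleton, Calcium signaling pathway, and Cell cycle. This rule gave 37 members of the 1154 genes listed in any table. Before the 12 terms were applied there were 91 genes, and 54 of them were left out. The terms left out were those of KEGG only, and 15 members were still placed under Signal Transduction in Reactome.

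Wild-type AB larvae were exposed from 3 days postfertilization (dpf) for 72 h to azithromycin, a macrolide antibiotic, or to one of 7 related impurities (F, I, J, L, Q, R, and S), each at 2 mM, and RNA of the dissected liver was sequenced at 6 dpf. The control larvae received DMSO, the vehicle. The series holds 9 libraries, 1 for each of the 8 compounds and 1 for DMSO, so no comparison has a replicate and no test between compounds was possible. In all 8 comparisons the same DMSO library was the control. Each table names the DEGs of each pathway with their direction and holds no expression values or read numbers. The size of a change, its error, and the depth of a library are therefore unknown. A gene that is not listed for a compound may be unchanged, below the fold change of 2, which the study's methods state for upregulated genes, or outside every pathway of the 3 databases. It may also be missing for an unknown reason. The study reports *fosab* as upregulated above that fold change for impurities J, I, Q, and R. Here *fosab* was listed only for azithromycin and impurity L. The members were chosen because they were listed, so their listing is given as a description. In dissected liver, which holds hepatocytes together with resident and blood immune cells, fewer cells of a type and less RNA per cell cannot be told apart.

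Innate immunity begins with receptors that recognise microbial molecules. Toll-like receptors pass the signal through adaptor proteins and kinases to the factors NF-κB and interferon regulatory factors, which switch on cytokines and interferon genes. The liver is the main source of circulating complement, a cascade of plasma proteins that tags and lyses microbes, and it also makes iron-binding and acute phase proteins. Adaptive immunity rests on peptides shown on major histocompatibility complex (MHC) molecules and on the receptors of lymphocytes, which mature late in zebrafish larvae.

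The members were spread thinly over the compounds. The members had 80 entries, 1 for each compound that listed a member, with 36 upregulated and 44 downregulated. Of these entries 45% were upregulated, against 50.8% of the 3265 entries of all genes. The gene *fbxo44.9* alone gave 8 of the 44 downregulated entries, and *sh2b1* gave 7 of the 36 upregulated ones. Entries of one gene are not independent, since all comparisons share the DMSO library. Of the 37 members, 22 were listed for a single compound, which is 59.5% against 38.3% of all 1154 genes and 46.3% of the 54 immune genes left out. A member was listed for a mean of 2.16 compounds, a left-out immune gene for 2.72, and any listed gene for 2.83. Only upregulated entries were found for 16 members, only downregulated entries for another 16, and entries in both directions for 5.

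**Figure D1:**
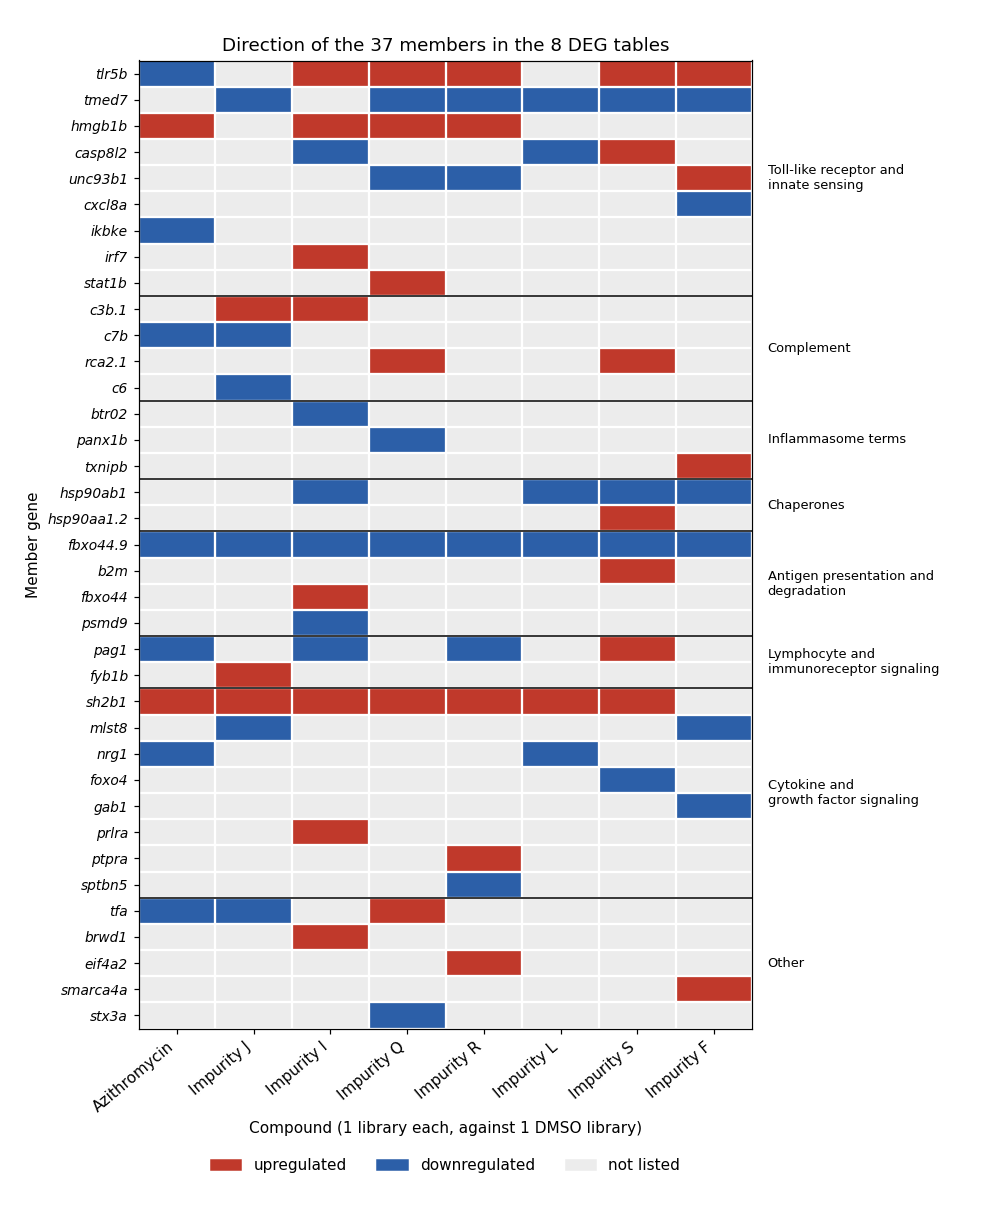
Direction of each of the 37 members (rows, grouped by role) in the table of each compound (columns). Red marks a gene listed as upregulated against DMSO, blue downregulated, and gray not listed. *fbxo44.9* was blue for all 8 compounds, *sh2b1* red for 7, and most rows held 1 colored cell.

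For azithromycin 9 members were listed, which is 24.3% against 36.1% of all genes, with 2 upregulated and 7 downregulated. In single directions, 18.9% of all 1154 genes were upregulated and 17.2% downregulated for azithromycin, which compares with 5.41% and 18.9% of the members. For impurity L, 6 members were listed (16.2% against 34.5% of all genes), the fewest of any compound, and *sh2b1* was the only one of them that was upregulated. The share of members upregulated for impurity L was 2.7% against 17.7% of all genes, and the share downregulated was 13.5% against 16.8%. For impurity I, 14 members were listed (37.8% against 35.7%), the most of any compound, with 8 upregulated (21.6% against 18.6% of all genes) and 6 downregulated (16.2% against 17.1%). The place of impurity L rests on the 12 terms. Of the 54 immune genes they removed, 23 (42.6%) were listed for impurity L, the most of any compound, with 14 upregulated and 9 downregulated, and 14 of the 54 were also upregulated for impurity I. With no term left out, the upregulated genes among the 91 immune genes ran from 8 for impurity Q to 22 for impurity I. They numbered 15 for impurity L. Of all 1154 genes, 18.4% were upregulated for impurity Q, 18.6% for impurity I, and 17.7% for impurity L.

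The other compounds lay between these. For impurity S, 7 members (18.9%) were upregulated and 4 (10.8%) downregulated, against 18% and 19% of all genes. For impurity Q the numbers were 6 (16.2%) and 5 (13.5%), against 18.4% and 18% of all genes. For impurity R they were 5 (13.5%) and 5 (13.5%), against 18.4% and 16.7%. For impurity J, 3 members (8.11%) were upregulated and 6 (16.2%) downregulated, against 16.3% and 16.5% of all genes. For impurity F there were 4 upregulated (10.8%) and 6 downregulated (16.2%) members, against 17.5% and 17.9%. In both directions together, 29.7% of the members were listed for each of impurities S and Q, against 37% and 36.4% of all genes, 27% for each of impurities R and F, against 35.1% and 35.4%, and 24.3% for impurity J, against 32.8%. Impurity I was the only compound for which the share of the members exceeded that of all genes. With 37 members, 1 gene is 2.7% of the set, and none of these differences was tested.

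**Figure D2:**
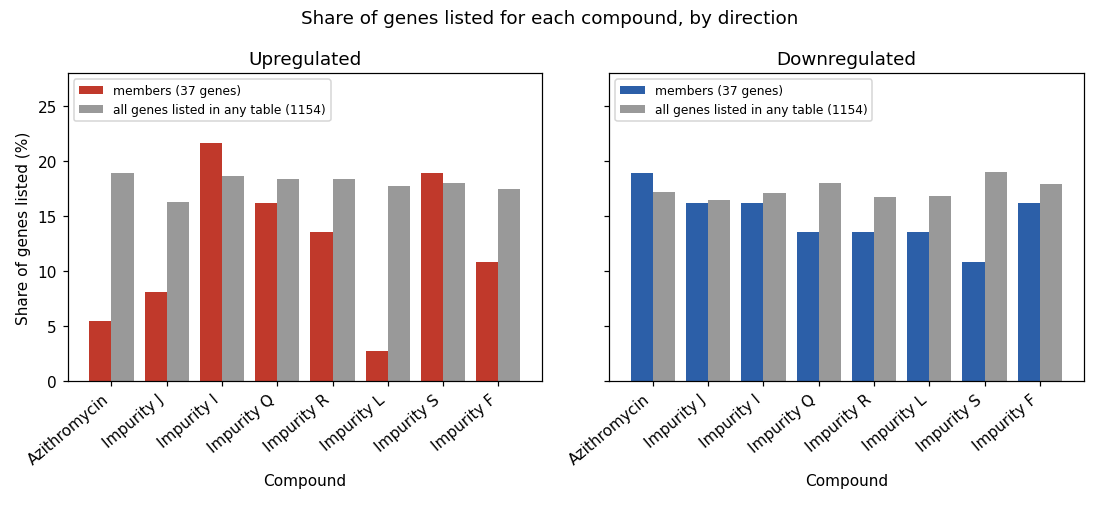
Share of the 37 members (colored bars) and of all 1154 genes listed in any table (gray bars) that each compound's table lists as upregulated (left) or downregulated (right), in percent. The upregulated share of the members ran from 2.7% for impurity L to 21.6% for impurity I, while that of all genes stayed between 16.3% and 18.9%. Of the 54 immune genes left out, which are not drawn, 14 were upregulated for impurity L and 14 for impurity I.

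Sensing and Toll-like receptor signaling gave 9 members with 26 entries, 13 in each direction. The receptor gene *tlr5b* (Entrez identifier 403139), whose product recognises bacterial flagellin, was listed for 6 compounds. It was upregulated for impurities I, Q, R, S, and F, downregulated for azithromycin, and not listed for impurities J and L. Since every comparison used the same DMSO library, *tlr5b* was lower in the azithromycin library than in each of those 5 impurity libraries. The current RefSeq annotation holds 2 *tlr5* genes on one chromosome, and *tlr5a* was not listed in any table. Whether reads were shared between these copies was not tested.

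The trafficking genes of the receptors differed from *tlr5b*. *tmed7* (405848), which encodes a cargo receptor of the early secretory pathway with a known role in human TLR4 transport, was listed for 6 compounds and downregulated in each of them, namely impurities J, Q, R, L, S, and F. *unc93b1* (100000934), whose product carries the nucleic acid-sensing receptors to endosomes in mammals, was downregulated for impurities Q and R and upregulated for impurity F. Thus the receptor *tlr5b* was upregulated and *unc93b1* downregulated for impurities Q and R, whereas both were upregulated for impurity F. *hmgb1b* (795095), a chromatin protein that acts as an alarm signal outside the cell, was upregulated for azithromycin and impurities I, Q, and R and not listed for the other compounds. Among these 4 members, azithromycin listed only *tlr5b* and *hmgb1b*, in opposite directions.

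The remaining genes of this group act below the receptors, and 4 of these 5 were listed for a single compound. The kinase gene *ikbke* (437024), which activates interferon regulatory factors, was downregulated for azithromycin. *irf7* (393650), a master regulator of type I interferon, was upregulated for impurity I, and *stat1b* (368481), a transcription factor of the interferon response, was upregulated for impurity Q. The neutrophil chemokine gene *cxcl8a* (100002946) was downregulated for impurity F. The caspase gene that the files name *casp8l2* (557302) and RefSeq names *casp10*, an initiator of apoptosis, was downregulated for impurities I and L and upregulated for impurity S.

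In the KEGG Toll-like receptor signaling pathway, 23 of 81 background genes (28.4%) were listed in at least 1 table. Across the 64 KEGG pathways with at least 50 background genes, this share had a median of 20.7% and ran from 8.12% to 33%. Of the Immune System term, 82 of 466 background genes (17.6%) were listed, against a median of 20.4% over the 203 Reactome terms of that size. In the KEGG pathway 6 of the 23 genes were members (*casp8l2*, *cxcl8a*, *ikbke*, *irf7*, *stat1b*, and *tlr5b*), and the other 17 fell under the broad terms. Among those 17, the cytokine gene *il1b* was upregulated for impurities L and S, the adaptor gene *traf6* for impurity L, and the kinase gene *chuk* for impurity S. The regulatory subunit gene *pik3r1* was downregulated for 7 compounds, all but impurity R. Over all 23 genes, the upregulated and downregulated entries numbered 6 and 2 in impurity L, where all genes had 204 and 194, 6 and 1 in impurity S (all genes 208 and 219), 4 and 1 in impurity R (212 and 193), and 5 and 3 in impurity I (215 and 197). They numbered 2 and 5 in azithromycin (218 and 199), 1 and 4 in impurity J (188 and 190), 3 and 5 in impurity F (202 and 206), and 2 and 3 in impurity Q (212 and 208). These differences of a few genes were not tested. The numbers for impurities J, I, Q, and R do not include *fosab*, which the study reports as upregulated for them. Impurity L, for which *sh2b1* was the only member upregulated, thus had its upregulated Toll-like receptor pathway entries in genes that the broad terms removed.

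The complement genes comprised 4 members with 7 entries, and these 4 were all genes that any table listed under the Reactome Complement cascade, which has 16 background genes. *c3b.1* (563665), a gene of the central component C3, was upregulated for impurities J and I. *rca2.1* (541367), a membrane-bound regulator of complement activation, was upregulated for impurities Q and S. *c7b* (570832), whose product belongs to the membrane attack complex, was downregulated for azithromycin and impurity J. *c6* (393611), a further gene of that complex that RefSeq names *c6.2*, was downregulated for impurity J. The genes *c6* and *c7b* are neighbors in the RefSeq annotation, with 0 protein-coding genes between them.

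Impurity J was the only compound with more than 1 complement member, and there the entry of C3 was upward and those of the attack complex were downward. For impurities R, L, and F no complement member was listed. These 3 compounds, together with impurity I, listed another C3 gene, *c3a.3*, as downregulated, although the tables do not place it under Immune System. Of 42 complement genes on a separate list, matched by symbol, 4 were listed in any table (*c3a.3*, *c3b.1*, *c6*, and *c7b*). They had 2 upregulated and 7 downregulated entries, against 50.8% upregulated among the entries of all genes. The gene *c3a.3* alone gave 4 of the 7, and the list does not hold *rca2.1*. The 4 complement members had 4 upregulated and 3 downregulated entries. The C3 genes therefore had opposite directions for impurity I, where *c3b.1* was upregulated and *c3a.3* downregulated. Whether reads were shared between the C3 copies was not tested.

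Under the Reactome term The NLRP3 inflammasome, a cytosolic platform that activates inflammatory caspases, 4 members were placed. The chaperone gene *hsp90ab1* (30573) was downregulated for impurities I, L, S, and F. *btr02* (562439), of a fish family of TRIM proteins, was downregulated for impurity I. *panx1b* (567417), a channel that releases ATP in mammals, was downregulated for impurity Q, and *txnipb* (448858), a binding partner of thioredoxin in mammals, was upregulated for impurity F. Of the 7 entries of these 4 genes, 6 were downregulated, and 4 of the 6 belonged to *hsp90ab1*. Of all entries of all genes, 50.8% were upregulated. A further chaperone gene, *hsp90aa1.2* (565155), was upregulated for impurity S, so the cytosolic HSP90 genes *hsp90ab1* and *hsp90aa1.2* had opposite directions there. The gene *hsp90aa1.1*, of the same name family on one chromosome, is not a member and was upregulated for impurity I and downregulated for impurity J.

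Antigen presentation and protein degradation held the one member listed for every compound. The gene with Entrez identifier 553461, which has no symbol in the files and is named *fbxo44.9* by RefSeq, was downregulated for azithromycin and all 7 impurities. It encodes a relative of the F-box proteins, which select substrates for ubiquitin ligases, and it is placed under Class I MHC mediated antigen processing and presentation. Of all 1154 genes, 46 (3.99%) were listed for all 8 compounds, 17 of them downregulated throughout. As one control library served every comparison, an effect of the compounds and a property of that library cannot be told apart for this gene.

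RefSeq counts 6 genes of the *fbxo44* family, all on one chromosome, and 2 of them were listed. The other was the gene that the files call *fbxo44* (494034), which was upregulated for impurity I, where *fbxo44.9* was downregulated, and which lies 8 protein-coding genes from it. Reads may have been divided among such copies, which was not tested. *b2m* (30400), the light chain of MHC class I, was upregulated for impurity S and not listed for the other compounds. *psmd9* (436709), a chaperone of proteasome assembly, was downregulated for impurity I. It remained a member because no table put it under the KEGG Proteasome term, and it was placed under 154 terms in all, the most of any member.

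The lymphocyte and immunoreceptor genes were *pag1* and *fyb1b*. *pag1* (100034498), an adaptor that holds back Src-family kinases at the membrane, was downregulated for azithromycin and impurities I and R and upregulated for impurity S. The gene with Entrez identifier 796938, named *fyb1b* by RefSeq and without a symbol in the files, was upregulated for impurity J. Its relatives in mammals are adaptors of T cell receptor signaling. None of 12 lymphocyte marker genes, among them *rag1*, *lck*, and *cd79a*, was listed under these symbols for any compound. Whether each of them lies in a pathway of the 3 databases, without which it could not be listed, was not checked.

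Among the 8 members of cytokine and growth factor signaling, *sh2b1* (558152) had the most entries. This adaptor of the JAK2 kinase was upregulated for 7 compounds and not listed for impurity F. The growth factor gene *nrg1* (796461), a ligand of ErbB receptors, was downregulated for azithromycin and impurity L, and *mlst8* (792689), a subunit of the mTOR complexes, for impurities J and F. The docking protein gene *gab1* (406666) was downregulated for impurity F, the transcription factor gene *foxo4* (563719) for impurity S, and the spectrin gene *sptbn5* (569585) for impurity R. The prolactin receptor gene *prlra* (407651), of the class I cytokine receptors, was upregulated for impurity I, and the phosphatase gene *ptpra* (140818) for impurity R.

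Of the 16 entries of this group 9 (56.2%) were upregulated, against 50.8% of the entries of all genes, and 7 of those 9 belonged to *sh2b1*. The group differs from the Reactome term Cytokine Signaling in Immune system, which held 11 members with 13 upregulated and 5 downregulated entries. There too *sh2b1* gave 7 of the upregulated entries. Several of the 8 genes of the group are general signaling genes. *nrg1* was placed under 85 terms, *sptbn5* under 69, *mlst8* under 63, and *ptpra* under 61, while the median was 10 terms for a member and 4 for any listed gene. The label of an immune gene rests for them on Reactome terms such as DAP12 signaling and Fc epsilon receptor signaling, each of which held 7 members. By contrast, *fbxo44.9*, *fbxo44*, *b2m*, *unc93b1*, and *fyb1b* were each placed under 4 terms, and *tlr5b* under 2.

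The last 5 members have their main roles elsewhere. *tfa* (30255), the iron carrier transferrin that hepatocytes secrete, was downregulated for azithromycin and impurity J and upregulated for impurity Q. *smarca4a* (353295), a chromatin remodeling ATPase, was upregulated for impurity F. *brwd1* (798858), a bromodomain protein, was upregulated for impurity I. *eif4a2* (406760), an RNA helicase of translation initiation, was upregulated for impurity R. The membrane fusion protein gene that the files name *stx3a* (393515) and RefSeq names *stx3b* was downregulated for impurity Q.

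Some members were listed in both directions. If a gene was called up for one compound and down for another, those 2 libraries differ in it whatever the DMSO library holds. These members were *tlr5b*, *unc93b1*, *casp8l2*, *pag1*, and *tfa*. They are 5 of the 15 members listed for at least 2 compounds, or 33.3%. The share was 19.5% of the 712 such genes among all genes and 20.7% of the 29 among the immune genes left out. Of all 37 members they are 13.5%, against 12% of all 1154 genes and 11.1% of the 54 left out. These differences were not tested. In each of the 5 members the contrast rested on 1 library on one side. That library was azithromycin for *tlr5b*, impurity F for *unc93b1*, impurity S for *casp8l2* and *pag1*, and impurity Q for *tfa*. Without impurities S and F, the members listed in both directions numbered 2, *tlr5b* and *tfa*.

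**Figure D3:**
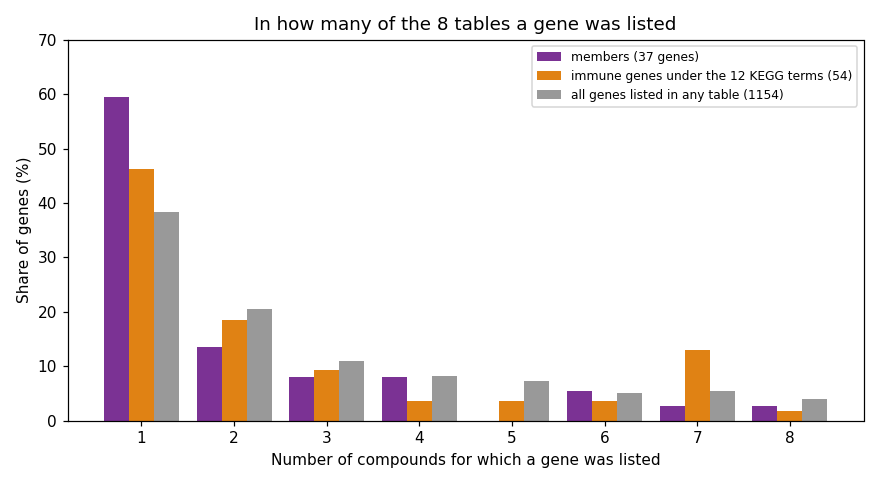
Share of genes (vertical axis, percent) by the number of compounds for which they were listed (horizontal axis), for the 37 members, the 54 immune genes under the 12 broad KEGG terms, and all 1154 listed genes. A single compound accounted for 59.5% of the members, 46.3% of the left-out immune genes, and 38.3% of all genes.

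The compounds were tested at a matched dose and time, and related structures can be set side by side. A matched dose need not mean matched injury. In the study, azithromycin and impurity L blackened the larval liver at doses below the one used for RNA. Impurity F had almost no liver toxicity at the lower doses tested. The libraries of azithromycin and impurities L and F may therefore come from livers with unequal injury. The part of such injury in their differences was not tested. According to the study, impurities F and L differ from azithromycin only in the substituent on the nitrogen of the C5 side chain, which is an aldehyde group in impurity F. Azithromycin, impurity L, and impurity F listed 9, 6, and 10 members (24.3%, 16.2%, and 27%, against 36.1%, 34.5%, and 35.4% of all genes). Of the 54 left-out immune genes they listed 20, 23, and 16, so the order was not that of the members. The gene *fbxo44.9* was downregulated for all 3 compounds. Impurity L and azithromycin both listed *sh2b1* upregulated and *nrg1* downregulated, and neither was listed for impurity F. Impurities L and F both listed *tmed7* and *hsp90ab1* downregulated, and neither was listed for azithromycin. Of these genes only *nrg1* had no entry for a further compound. Over all compounds, *sh2b1* was upregulated for 7, *tmed7* downregulated for 6, and *hsp90ab1* downregulated for 4. Among azithromycin and impurities L and F, *tlr5b* alone changed direction. It was downregulated for azithromycin, upregulated for impurity F, and not listed for impurity L.

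Impurities Q, R, and S are altered at C9 of the lactone ring. All of them listed *tlr5b* and *sh2b1* upregulated and *tmed7* and *fbxo44.9* downregulated. None of these entries was particular to impurities Q, R, and S. *tlr5b* was also upregulated for impurities I and F, and *tmed7* downregulated for impurities J, L, and F. *sh2b1* was upregulated for 7 compounds, and *fbxo44.9* was downregulated for all 8. *hmgb1b* was upregulated and *unc93b1* downregulated for impurities Q and R, and neither was listed for impurity S. *pag1* was downregulated for impurity R and upregulated for impurity S. In the study, impurity S was less toxic than azithromycin to cultured human liver cells, while impurities Q and R did not differ significantly from azithromycin. The livers exposed to impurities Q, R, and S may therefore also have had unequal injury, and its part in these differences was not tested. Impurity J, altered at the C3 side chain, was the only compound with entries for *c6* and *fyb1b*. Such differences between tables without values have no interval, and a missing entry does not show that a compound left the gene unchanged.

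Separate gene lists placed the members among other immune genes, matched by the symbols in the files. A gene deposited under another symbol was counted as not listed, so these counts may be too low. For example, *chuk*, upregulated for impurity S, was missed because the list holds it as *chuka*. Of 64 genes of the Toll-like receptor pathway, 11 were listed in any table, with 12 upregulated and 13 downregulated entries. Of 45 interferon response genes, 4 were listed, and their 9 entries were all upregulated, against 50.8% of the entries of all genes. The 4 genes were *tyk2*, a kinase of the interferon receptor that is no member, with 6 entries, and the members *irf7*, *stat1b*, and *b2m* with 1 entry each. Without *tyk2* the interferon list therefore rested on 1 gene in each of impurities I, Q, and S.

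Of 62 genes of cytokine and cytokine receptor signaling, 5 were listed and none was a member. They had 9 upregulated and 3 downregulated entries, against 50.8% upregulated among the entries of all genes. The kinase gene *tyk2*, also on the interferon list, gave 6 of the 9. Of 47 lymphocyte and immunoreceptor genes, 3 were listed, with 1 upregulated and 11 downregulated entries, against 50.8% upregulated among the entries of all genes, and the kinase gene *prkcq* alone gave 6 of the 11. Among 37 genes of innate effectors and the neutrophil granule, 4 were listed. They had 7 upregulated entries and 1 downregulated entry, against 50.8% upregulated among the entries of all genes. *hmgb1b* gave 4 of the 7, and *rac2*, *s100a10b*, and *anxa1a* gave 1 each. The downregulated entry was also of *anxa1a*. Of 31 antigen presentation genes, *b2m* alone was listed.

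Marker genes of the cell types that dissected liver could hold were also counted. They were matched by symbol as above, so these counts may also be too low. A marker outside every pathway of the 3 databases could not be listed, and this was not checked. The share listed among all zebrafish genes is unknown, so a count of listed markers has no background share. Of 10 macrophage markers, *marco* was downregulated for azithromycin and impurity J, and *csf1ra* for impurities L and F. Of 10 genes on the neutrophil list only *il1b* was listed, upregulated for impurities L and S. This cytokine gene is also on the Toll-like receptor and cytokine lists, and the other genes of the neutrophil list, such as *mpx* and *lyz*, were not listed. No erythrocyte (6 genes) or intestine (4 genes) marker was listed. Of 7 pancreas markers, *amy2a* was downregulated for impurities I and S. Of 7 muscle markers only *mylpfa* was listed, for all 8 compounds, upregulated for azithromycin and impurities J, I, L, and F and downregulated for impurities Q, R, and S. Of 15 hepatocyte markers 4 were listed, with 12 upregulated and 4 downregulated entries, against 50.8% upregulated among the entries of all genes. Among the 4 markers, the fibrinogen gene *fgb* was upregulated for 7 compounds and downregulated for impurity I. *serpina1* was upregulated for impurities I, Q, and F and downregulated for impurity S. *fga* was upregulated for impurity S, and the remaining marker was the member *tfa*. A marker appears in these tables only as a DEG, so the labelled tissue cannot be checked from levels. The part of immune, muscle, or other cells in the members' entries was not tested.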

How the data were processed

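RNA of dissected zebrafish larval liver was sequenced, with 1 library per condition. The submitters' processing notes name FastQC, fastp, HISAT2, and the build GRCz11. The counting program, the annotation, and any test for single genes are not given in the sources used here. The authors deposited, for each compound against DMSO, a table of KEGG, Reactome, and PANTHER pathways with how many DEGs and how many background genes each holds, and the name and direction of each DEG. The deposited p-values and corrected p-values are the authors' comparisons and were not used. The tables of the 8 compounds have 817 to 916 rows, and no values for the DMSO library were used here.

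Genes were matched by Entrez identifier, and a gene was taken as listed for a compound when any row of its table named it. In 0 rows did the number of DEGs differ from the genes listed. All 37 members matched the RefSeq gene table of assembly GRCz12tu, which was used only for names and gene order. The background of each count was the 1154 genes listed in any table, since other genes are not named.

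The members and gene lists were chosen with earlier results of these data known. The rule for names took members listed for at least 7 compounds, members listed in both directions, members of the Toll-like receptor pathway, and members on the gene lists. The remaining members, and all non-members outside the lists, were named after their values were seen, as were the roles by which the members are grouped. No test was run, because each group holds 1 library. The reading of members and directions was tested on simulated tables. Python 3.11.15, pandas 2.3.3, numpy 2.4.6, and matplotlib 3.10.9 were used.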

Additional observations from a re-analysis of the deposited data

How the results depend on the processing

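No paired analysis was possible because each condition has 1 library and the result comes from no test. With the Immune System rows alone, or with listings read from the Reactome rows alone, the members listed in both directions numbered 3 in place of 5, since *tlr5b* and *casp8l2* are listed under KEGG only. With impurities S and F left out they numbered 2, and 2 members were listed for all of the remaining compounds in place of 1. With one entry per gene symbol 0 members were listed for all 8 compounds, since *fbxo44.9* has no symbol in the files. Of all 1154 genes, 46 (3.99%) were listed for all 8 compounds and 139 (12%) in both directions. With no KEGG term left out there were 91 members, of which 2 were listed for all 8 compounds and 11 in both directions. In that larger set the upregulated and downregulated numbers were 10 and 19 (azithromycin), 10 and 17 (J), 22 and 12 (I), 14 and 15 (R), 15 and 14 (L), 17 and 12 (S), and 10 and 16 (F), and 16 genes were downregulated for Q. Each of these differed by more than 1.5 times from the number for the 37 members. Since the set itself grew from 37 to 91 genes, the limit of 1.5 times cannot tell a larger set from another pattern of listing. The shares of all genes listed for each compound, given above, do not depend on the set. The other values under the first, the symbol, and the Reactome alternatives stayed within 1.5 times, 18 of 19 under each. The tables hold no read numbers, so what depth limits is unknown, and a gene near the threshold of 2 could move in or out of a list unseen.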
